A study of Rattus norvegicus with 24 samples.

Results

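The renal cortex of rats 120 h after ischemia and reperfusion was compared with the cortex of sham rats. All rats were Wistar and aged 3 months. In the injured group the blood supply of both kidneys had been interrupted for 20 min and then restored for 120 h, while the labels give the sham group neither an ischemia nor a time of killing. The compared set was chosen by the array titles alone and held 6 of the 24 arrays of the series, 3 of 120 h cortex and 3 of sham cortex, numbered here as in the labels (sham 1 to 3 and 120 h 1 to 3). The other arrays were cortex at 6 and 24 h and medulla of the same 4 conditions. Total RNA of whole cortex had been amplified into biotinylated cRNA and hybridised to Illumina bead arrays. Fibrinogen in kidney damage is the subject named in the title of the series. The labels do not say that the replicates were separate animals, and they give no sex. The p-values cover the spread among arrays within groups, pooled over all 24 arrays of the series, and part of it may be technical.

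Most of the cortex is proximal tubule, which reabsorbs most of the filtered salt, glucose, amino acids and phosphate and lives mainly on fatty acid oxidation. Ischemia kills or strips part of this epithelium, and surviving cells are known to lose specialised carriers, re-enter the cell cycle and cover the gaps. Repair goes with an influx of macrophages and lymphocytes and with new matrix around the tubules. What remains altered days after the insult is therefore of interest for recovery and for later fibrosis.

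Proximal tubule genes, which a cortex sample should hold, were above background on all 6 arrays. The 5 markers of that segment (the phosphate carrier Slc34a1, the glucose carrier Slc5a2, the organic anion carrier Slc22a6, the water channel Aqp1 and the protein receptor Cubn) had summed normalized intensities of 46440 to 56128 on the sham arrays and 27724 to 46666 on the 120 h arrays. Median raw intensity lay between 75.8 and 79.9 on the sham arrays and between 70.9 and 79.9 on the 120 h arrays, and 11977 to 12536 of the 22523 probes of an array were above background. Pearson correlations of normalized log2 values were 0.972 to 0.989 among sham arrays, where sham 1 correlated less with the other two (0.9796 and 0.972) than they did with each other (0.989). They were 0.975 to 0.985 among the 120 h arrays. Precision is limited by 3 arrays per group. In whole tissue, fewer cells of a type and less RNA per cell cannot be told apart.

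Levels below are log2 of background-corrected, quantile-normalized intensity. A difference is the mean of the 120 h arrays minus that of the sham arrays, ± SE, with n = 3 arrays per group, and adjusted p-values come from limma with Benjamini-Hochberg adjustment over 14390 probes. Both the SE and the p-values use a spread pooled over the 8 groups of the series, medulla and earlier times included. Of these probes 813 (5.65%) passed an adjusted p of 0.05, 352 higher (2.45%) and 461 lower (3.2%) at 120 h. Counted as genes with 1 probe each, 598 of 9799 passed (6.1%), of which 301 were higher (3.07%) and 297 lower (3.03%). The number of called probes fell to 297 without 120 h 2 and to 322 without sham 1, and it was 676 at most with another of the 6 arrays left out. The share of called probes that were lower was larger on the authors' own normalized values (248 higher and 478 lower) and with a larger background offset (279 higher and 502 lower). The median difference over all genes was 0.01. Each of the 3 injured arrays lay above each of the 3 sham arrays for 1457 genes (14.9%) and below for 1383 genes (14.1%). Counts of called list members below stand against the 3.07% higher and 3.03% lower over all genes.

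**Figure D1:**
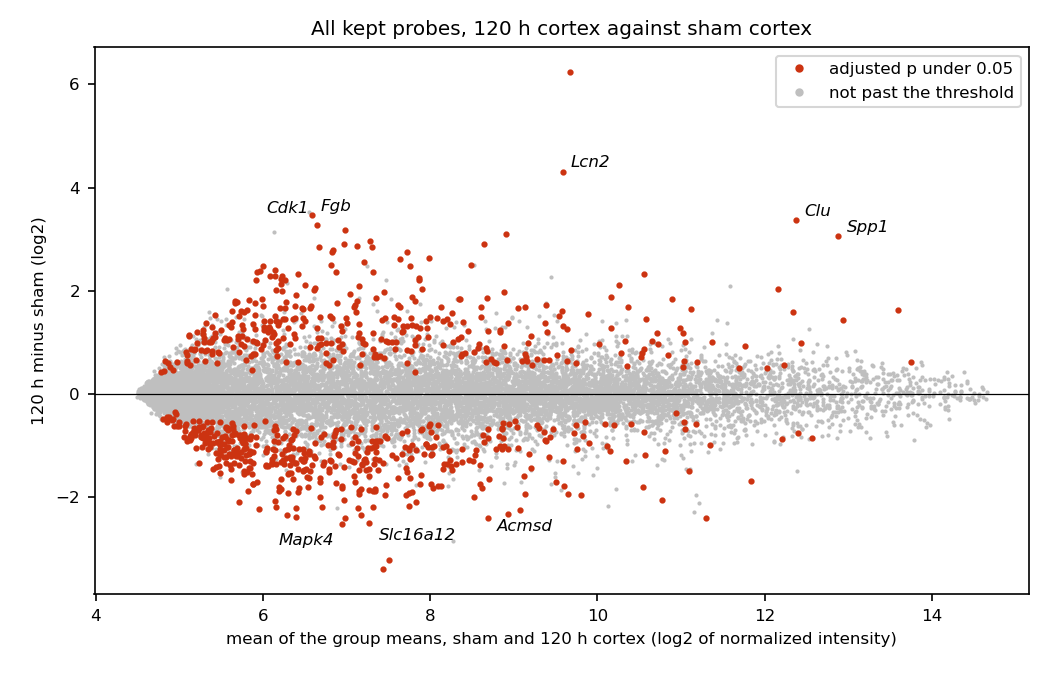
Difference between 120 h and sham cortex (y axis, log2) against the mean of the group means (x axis, log2 of normalized intensity) for 14390 probes, with the 813 probes past an adjusted p of 0.05 in red. Called probes lie on both sides of 0, 352 above and 461 below. The topmost point is an unannotated probe with a difference of 6.24, and Lcn2 follows at 4.31.

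Lipocalin 2, clusterin and osteopontin, secreted proteins that damaged tubules are known to make, were among the largest rises at 120 h. Lcn2, an iron-scavenging protein used as a urinary marker of tubular damage, read 6.94, 7.18 and 8.17 on the sham arrays and 10.43, 13.23 and 11.57 on the 120 h arrays. The lowest injured array lay above the highest sham array, and 120 h 2 was the highest and 120 h 1 the lowest of the injured arrays. The difference was 4.31 ± 0.54 (adjusted p = 0.00014), a 19.9-fold rise. Clu, the extracellular chaperone clusterin, read 10.93, 10.75 and 10.39 in sham and 13.26, 14.63 and 14.28 at 120 h, again without overlap (3.37 ± 0.37, adjusted p = 4.22e-05). Spp1, the matrix and cytokine-like protein osteopontin, read 11.76, 10.81 and 11.49 in sham and 14.19, 14.56 and 14.49 at 120 h (3.06 ± 0.22, adjusted p = 9.37e-08). All 3 injured Spp1 values were close to the top of the normalized scale at 14.775, as was Clu on 120 h 2, and differences are compressed there.

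The list of tubular injury and repair genes held 27 measured members, of which 9 rose and 0 fell, with a median difference of 0.97. The count was 5 without 120 h 2. Tnfrsf12a, the receptor of the cytokine TWEAK, read 6.29, 7.70 and 7.57 in sham and 9.72, 10.68 and 9.89 at 120 h (2.91 ± 0.55, adjusted p = 0.00377), with no overlap. Cd44, a hyaluronan and osteopontin receptor of regenerating tubules, read 5.81, 5.36 and 5.53 in sham and 7.11, 8.90 and 8.21 at 120 h (2.51 ± 0.42, adjusted p = 0.0016). All injured arrays were again above all sham arrays, with 120 h 2 the highest for both genes. The phosphate carrier Slc34a2 differed by 3.09 ± 0.75 (adjusted p = 0.0187), but its sham arrays spread from 6.24 to 8.65 and the call was lost without sham 2 (adjusted p = 0.0559), sham 3 (0.084) or 120 h 2 (0.138). The adhesion receptor Pvr rose by 2.36 ± 0.52 (adjusted p = 0.0105), a call lost without 120 h 2 (adjusted p = 0.0835). The metalloproteinase inhibitor Timp1 had a difference of 2.51 ± 0.79 that did not pass (adjusted p = 0.0686), and neither did the intermediate filament gene Vim (0.97 ± 0.29, adjusted p = 0.0553). The kidney injury gene Havcr1 had no probe in the annotation used here.

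**Figure D2:**
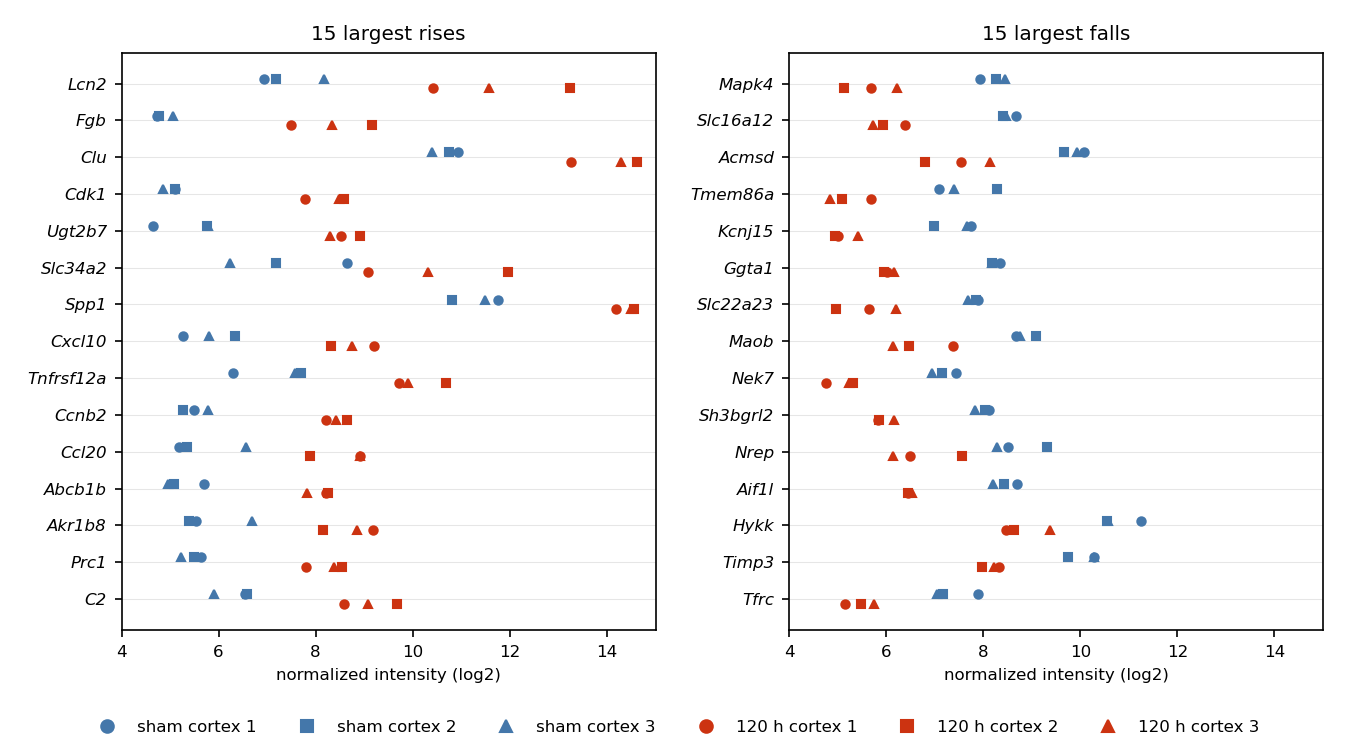
Normalized intensity (x axis, log2) on each of the 3 sham cortex arrays (blue) and 3 arrays of 120 h cortex (red) for the 15 largest rises and the 15 largest falls among annotated genes past an adjusted p of 0.05 whose groups do not overlap. Marker shape gives the replicate number. Blue and red points of a gene are separate in every row because separation was part of how these genes were chosen.

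Fibrinogen is a soluble clotting protein made of alpha, beta and gamma chains, normally by the liver, and is cleaved into fibrin. The beta chain gene Fgb was the largest annotated rise past the threshold after Lcn2, and the gamma chain gene Fgg was raised with less certainty. Fgb read 4.74, 4.77 and 5.06 in sham, where 1 of 3 arrays was above background, and 7.48, 9.15 and 8.34 at 120 h. The groups were far apart and the difference was 3.47 ± 0.60 (adjusted p = 0.00191), or 11.1-fold. Fgg read 4.90, 4.70 and 4.72 in sham and 5.84, 8.31 and 7.34 at 120 h, with no overlap. However, 120 h 1 exceeded the highest sham array by much less than did the other injured arrays. On sham 2 and sham 3 Fgg was under the lowest signal above background (4.88 and 4.89). Its difference of 2.39 ± 0.65 passed (adjusted p = 0.037), but not without sham 1 (adjusted p = 0.103), sham 2 (0.0856), sham 3 (0.0827), 120 h 2 (0.209) or 120 h 3 (0.0884). Nor did it pass on the authors' normalized values (adjusted p = 0.141) or in a fit of only the 2 groups (0.0709). The alpha chain gene Fga had no probe in the annotation used. Of 19 measured genes of fibrinogen and coagulation, 3 rose and 0 fell, the third being the phospholipid-binding anticoagulant Anxa5 (1.58 ± 0.27, adjusted p = 0.0016). Among the members that did not pass were tissue factor F3 at 0.41 ± 0.37 (adjusted p = 0.594) and the von Willebrand factor gene Vwf at -0.01 ± 0.31 (adjusted p = 0.993), and the list median of -0.01 changed sign between settings. The 3 liver genes with a kept probe, read as a check for RNA of another source, gave no call and summed to 332 to 520 in sham and 408 to 643 at 120 h. Of these, Serpina1 was above background on none of the 6 arrays and Cps1 on 1 of them. Their part in the fibrinogen result was not tested.

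Among 17 measured acute phase genes 4 rose and 0 fell (median 0.64). Serpina3n, a serine protease inhibitor of the acute phase, read 5.06, 4.97 and 5.28 in sham and 6.16, 8.05 and 7.82 at 120 h, without overlap (2.24 ± 0.43, adjusted p = 0.00422; 0.0567 in a fit of only the 2 groups). Stat3, the transcription factor through which interleukin-6 acts, differed by 0.93 ± 0.21 (adjusted p = 0.0115), a call lost without sham 2 (adjusted p = 0.06) or 120 h 3 (0.0529). Lrg1, a secreted leucine-rich glycoprotein, was above background on 0 of 3 sham arrays and 3 of 3 arrays at 120 h, which makes it at least 1.45-fold higher (the mean of the injured arrays against the lowest signal above background), with an adjusted p of 0.0365 that was not reached without sham 1 (adjusted p = 0.0977), sham 2 (0.0814), sham 3 (0.0882), 120 h 2 (0.165) or 120 h 3 (0.148). The count of acute phase rises was 1 without sham 2 or 120 h 3 and 2 without sham 1, sham 3 or 120 h 2.

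The Fgb promoter is shown because fibrinogen genes are known targets of interleukin-6 through a short element with the letters CTGGGA. The sequence runs from 250 bases before to 50 bases after the gene start in RefSeq (GRCr8, chr2:170700826-170701125, minus strand), with CTGGGA on either strand in capitals.
Fgb: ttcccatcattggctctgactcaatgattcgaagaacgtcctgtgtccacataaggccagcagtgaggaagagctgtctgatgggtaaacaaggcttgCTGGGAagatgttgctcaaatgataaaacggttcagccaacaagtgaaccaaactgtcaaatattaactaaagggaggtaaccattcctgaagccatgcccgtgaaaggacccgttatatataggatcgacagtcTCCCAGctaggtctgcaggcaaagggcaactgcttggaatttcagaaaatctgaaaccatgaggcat
The Fgb window held the element 2 times. Of the 7 called acute phase and fibrinogen genes 6 had a promoter in the table, and 4 of those 6 (66.7%) held CTGGGA, against 32.5% of 8109 promoters of genes with a kept probe. A match of letters is a description of the sequence and not a measured binding site.

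Cell division genes were the function with the most rises. Of 37 measured genes of mitosis and the spindle, 18 rose and 0 fell, against 3.07% of all genes higher, and 36 of 37 had a positive difference (median 1.13). The count was 11 without 120 h 2, and it was 10 on the authors' normalized values or with a larger background offset. Cdk1, the mitotic cyclin-dependent kinase, read 5.10, 5.11 and 4.85 in sham and 7.79, 8.59 and 8.49 at 120 h. Its difference was 3.27 ± 0.37 (adjusted p = 5.49e-05), or 9.64-fold, and the 3 injured arrays were close together, with 120 h 1 the lowest. Ccnb2, the B-type cyclin that activates it, read 5.49, 5.27 and 5.79 in sham and 8.22, 8.64 and 8.41 at 120 h (2.91 ± 0.45, adjusted p = 0.000788). Prc1, a crosslinker of microtubules at the spindle midzone, read 5.63, 5.49 and 5.23 in sham and 7.81, 8.54 and 8.38 at 120 h (2.79 ± 0.43, adjusted p = 0.000788). None of these genes overlapped between the groups, and Cdk1 was above background on 2 of 3 sham arrays.

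Further rises covered the kinesin Kif22 (2.41 ± 0.39, adjusted p = 0.0012), the kinetochore protein Knstrn (2.36 ± 0.36, adjusted p = 0.000788), the chromosomal passenger kinase Aurkb (2.30 ± 0.34, adjusted p = 0.000556) and the ubiquitin-conjugating enzyme Ube2c of the anaphase-promoting complex (1.83 ± 0.33, adjusted p = 0.00254). Each of these kept its call without any 1 of the 6 arrays. The mitotic kinesin Kif20a (1.77 ± 0.39, adjusted p = 0.0105) lost it without 120 h 2 (adjusted p = 0.0543). Members that did not pass included the polo kinase Plk1 (1.13 ± 0.33, adjusted p = 0.0512) and the cyclin Ccnb1 (-0.02 ± 0.23, adjusted p = 0.978). Of 32 genes of DNA replication and nucleotide supply 1 rose (median 0.27), and the difference between the lists was not tested. That gene was Rrm2, the ribonucleotide reductase subunit that supplies deoxynucleotides, at 5.72, 5.70 and 5.54 in sham and 6.72, 7.53 and 7.67 at 120 h (1.65 ± 0.36, adjusted p = 0.00944), a call lost without 120 h 2 (adjusted p = 0.0574). The helicase gene Mcm6 differed by 1.01 ± 0.41 (adjusted p = 0.165) and the sliding clamp Pcna by 0.14 ± 0.19 (adjusted p = 0.755). Phlda3, a p53 target that restrains Akt, read 5.67, 6.21 and 5.95 in sham and 7.30, 7.74 and 7.25 at 120 h (1.49 ± 0.29, adjusted p = 0.00503), 1 of 2 rises among 23 genes of G1, growth arrest and p53 (1 without sham 1, sham 2, 120 h 1 or 120 h 3).

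Mitotic genes are known to share promoter elements, the cell cycle homology region (CHR, searched as TTTGAA or TTTAAA on both strands), through which they are repressed outside the late cell cycle, and the CCAAT box (CCAAT on both strands), bound by the activator NF-Y. The promoters of the 3 largest mitotic rises are shown with both in capitals, from 250 bases before to 50 after the gene start in RefSeq (GRCr8), Cdk1 at chr20:19265043-19265342 on the plus strand, Ccnb2 at chr8:79981609-79981908 on the minus strand and Prc1 at chr1:143659231-143659530 on the plus strand.
Cdk1: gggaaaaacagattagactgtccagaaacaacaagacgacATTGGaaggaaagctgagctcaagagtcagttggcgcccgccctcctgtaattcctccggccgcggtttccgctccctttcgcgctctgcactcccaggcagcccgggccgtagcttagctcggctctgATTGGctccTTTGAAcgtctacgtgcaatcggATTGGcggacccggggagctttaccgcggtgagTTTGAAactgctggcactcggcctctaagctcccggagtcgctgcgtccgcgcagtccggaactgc
Ccnb2: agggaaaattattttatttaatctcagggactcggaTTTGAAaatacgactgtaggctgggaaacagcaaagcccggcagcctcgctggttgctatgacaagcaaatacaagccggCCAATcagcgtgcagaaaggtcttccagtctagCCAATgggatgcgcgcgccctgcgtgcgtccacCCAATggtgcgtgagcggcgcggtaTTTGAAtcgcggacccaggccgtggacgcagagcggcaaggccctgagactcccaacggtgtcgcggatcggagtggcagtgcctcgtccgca
Prc1: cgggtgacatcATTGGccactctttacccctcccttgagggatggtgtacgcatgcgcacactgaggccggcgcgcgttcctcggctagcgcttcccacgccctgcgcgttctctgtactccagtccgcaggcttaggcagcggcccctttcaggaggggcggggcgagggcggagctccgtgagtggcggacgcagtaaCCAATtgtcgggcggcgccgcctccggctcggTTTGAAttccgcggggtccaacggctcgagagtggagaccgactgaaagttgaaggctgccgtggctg
Of the 18 mitotic genes that rose, 14 had a promoter in the table. All 14 held CHR letters, against 19.7% of 8109 promoters of genes with a kept probe, and 10 of the 14 (71.4%) held a CCAAT box, against 37.5%. In Cdk1 a CHR match lay 16 to 11 bases before the gene start and in Prc1 18 to 13 bases before it. The motifs were chosen knowing that these genes had risen.

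MHC class II molecules carry peptides to the surface of macrophages, dendritic cells and B cells, with Cd74 as their chaperone and RT1-DM as the peptide exchanger. Of 11 measured genes 6 rose and 0 fell, 54.5% higher against 3.07% of all genes (median 0.98), and the count was 2 without sham 1. Cd74 read 9.09, 10.16 and 10.31 in sham and 11.51, 11.33 and 11.10 at 120 h (1.46 ± 0.24, adjusted p = 0.00144). RT1-Da, an alpha chain, read 11.77, 12.28 and 11.80 in sham and 12.74, 13.36 and 12.70 at 120 h (0.98 ± 0.20, adjusted p = 0.00529). All injured arrays exceeded all sham arrays in both genes, and sham 1 was the lowest array for each. In a fit of only the 2 groups neither passed (adjusted p = 0.0637 for Cd74 and 0.0733 for RT1-Da).

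RT1-Db1, the matching beta chain, read 9.16, 9.80 and 9.62 in sham and 11.36, 11.23 and 11.06 at 120 h (1.69 ± 0.36, adjusted p = 0.00788), a call lost without sham 1 (adjusted p = 0.0529). RT1-DMb rose by 1.00 ± 0.21 (adjusted p = 0.00833), lost without sham 1 (adjusted p = 0.063). RT1-DMa differed by 1.23 ± 0.31 (adjusted p = 0.0236), lost without sham 1 (adjusted p = 0.147), 120 h 1 (0.108) or 120 h 2 (0.0505), and the class II-processing protease Ctss by 1.20 ± 0.35 (adjusted p = 0.047), lost without any 1 of the 6 arrays (adjusted p between 0.0751 and 0.179). Ciita, the coactivator that switches class II genes on, differed by 0.49 ± 0.15 and did not pass (adjusted p = 0.0619). RT1 genes are close copies of each other, so a probe may read more than 1 of them. The class I pathway gave 5 rises and 1 fall among 25 genes, with the peptide pump subunit Tap2 at 1.22 ± 0.28 (adjusted p = 0.0129), lost without sham 2 (adjusted p = 0.0548) or 120 h 1 (0.0536), and the class I light chain B2m at 0.28 ± 0.15 (adjusted p = 0.3). The class I rises were 1 without sham 1, sham 3 or 120 h 2, 2 without sham 2 and 3 without 120 h 1.

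Class II promoters are known to carry a CCAAT-containing Y box, and the RT1-Da promoter is shown for it (RefSeq, GRCr8, chr20:4515165-4515464, plus strand, CCAAT on either strand in capitals).
RT1-Da: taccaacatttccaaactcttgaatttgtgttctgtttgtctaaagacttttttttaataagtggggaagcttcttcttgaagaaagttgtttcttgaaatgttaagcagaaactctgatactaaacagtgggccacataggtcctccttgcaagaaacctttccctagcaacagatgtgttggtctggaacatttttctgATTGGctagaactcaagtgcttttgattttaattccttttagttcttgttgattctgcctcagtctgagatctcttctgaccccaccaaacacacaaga
The match lay 49 to 45 bases before the gene start. Of the 6 called class II genes 5 had a promoter in the table, and all 5 held CCAAT, against 37.5% of promoters of genes with a kept probe.

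Some macrophage and T cell markers rose. All 22 measured macrophage markers had a positive difference (median 1.01), 6 rose (27.3%, against 3.07% of all genes) and 0 fell, and the rises numbered 2 without sham 1 or 120 h 2. Their summed normalized intensity was 4032 to 5517 on the sham arrays and 7831 to 15977 on the injured arrays, with 120 h 2 well above the other two. C1qa, a chain of the complement starter C1q that tissue macrophages make, read 6.22, 7.33 and 7.10 in sham and 8.88, 9.53 and 8.36 at 120 h (2.04 ± 0.35, adjusted p = 0.00183). Laptm5, a lysosomal protein of blood cells, read 6.85, 6.69 and 6.63 in sham and 8.13, 8.59 and 7.84 at 120 h (1.47 ± 0.29, adjusted p = 0.00555). Neither gene overlapped between groups. C1qc rose by 1.84 ± 0.39 (adjusted p = 0.00833), lost without sham 1 (adjusted p = 0.0591) or 120 h 2 (0.0592), and the lipopolysaccharide co-receptor Cd14 by 1.60 ± 0.34 (adjusted p = 0.00833), lost without sham 1 (adjusted p = 0.0653) or 120 h 2 (0.0543). The mannose receptor Mrc1 at 1.47 ± 0.47 (adjusted p = 0.071) and the adaptor Tyrobp at 1.13 ± 0.38 (adjusted p = 0.0833) did not pass.

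Of 24 T and NK cell markers 6 rose (25%) and 0 fell (median 0.27), and the rises numbered 1 without sham 1, sham 3 or 120 h 2. The sums were 977 to 1239 in sham and 1369 to 2171 at 120 h. Cd69, an early activation antigen of lymphocytes, read 5.07, 5.54 and 5.70 in sham and 7.12, 7.34 and 6.85 at 120 h (1.66 ± 0.34, adjusted p = 0.00701) and was called without any 1 of the arrays. Cd3d, a chain of the T cell receptor complex, was above background on 0 of 3 sham arrays and on all 3 arrays at 120 h, at least 1.76-fold higher (adjusted p = 0.0303). That call was lost without sham 1 (adjusted p = 0.101), sham 2 (0.0626), sham 3 (0.0752) or 120 h 2 (0.194). Cd3e was also below background on every sham array and at least 1.52-fold higher (adjusted p = 0.0444), lost without sham 1 (adjusted p = 0.124), sham 2 (0.103), sham 3 (0.085), 120 h 2 (0.269) or 120 h 3 (0.0669). For Cd3g the arrays read 5.28, 5.34 and 5.31 in sham and 6.03, 7.71 and 6.41 at 120 h, and 120 h 2 stood above the rest (1.41 ± 0.35, adjusted p = 0.0206), lost without sham 1 (adjusted p = 0.0753), sham 3 (0.0533) or 120 h 2 (0.141). The killer lymphocyte genes Nkg7 (1.21) and Cd8a (1.07) passed at adjusted p = 0.0408 and 0.0421, Nkg7 not without sham 1 (adjusted p = 0.203), sham 3 (0.0664), 120 h 1 (0.0839) or 120 h 2 (0.203) and Cd8a not without sham 1 (adjusted p = 0.124), sham 3 (0.138) or 120 h 2 (0.252).

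Neutrophil markers gave 0 calls among 5, with sums of 134 to 215 in sham and 162 to 317 at 120 h. The granule genes Mpo and Mmp8 were above background on none of the 6 arrays, while the calgranulin S100a8 was above background on all 6 and differed by 0.96 ± 0.52 (adjusted p = 0.322). Dendritic cell markers gave 0 calls among 8 and B cell markers 1 among 5, the tetraspanin Cd37 (0.98 ± 0.26, adjusted p = 0.0338), lost without sham 1 (adjusted p = 0.178), sham 2 (0.0625) or 120 h 2 (0.219). How far the marker changes enter the class II and complement results was not tested.

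**Figure D3:**
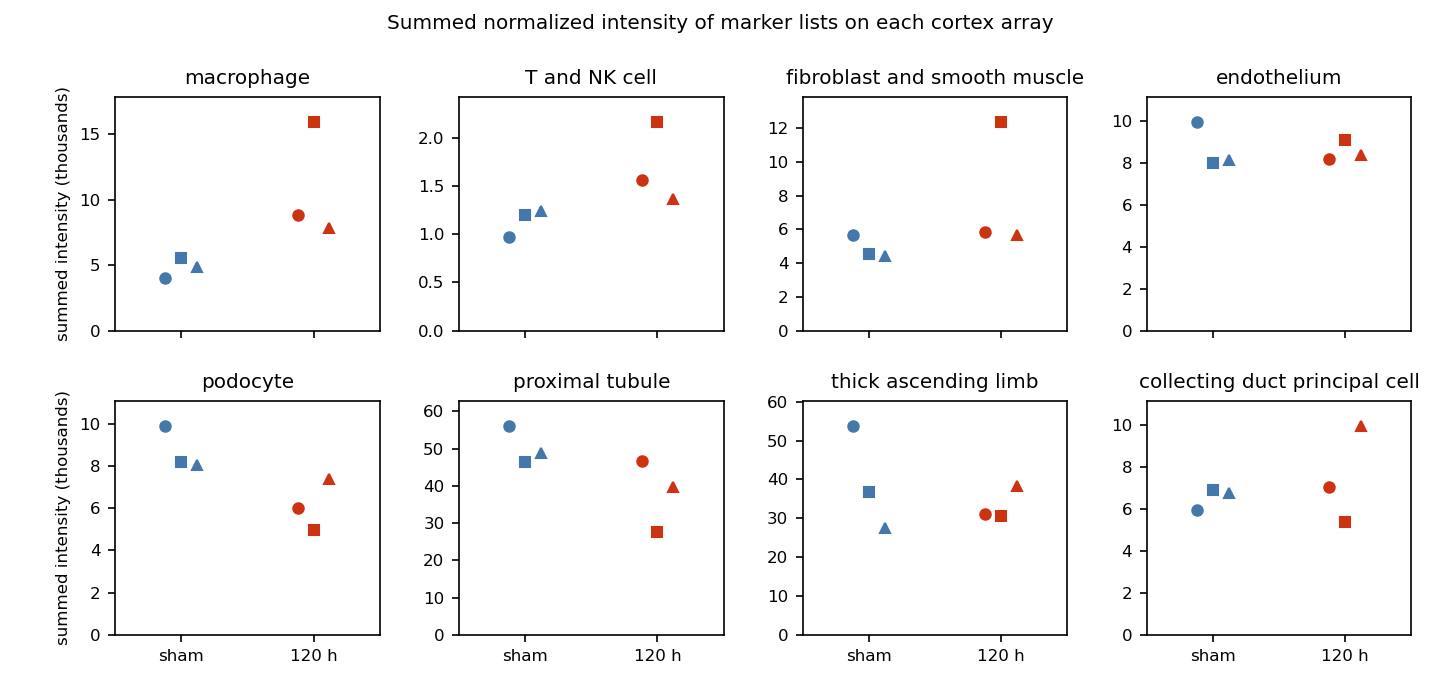
Summed normalized intensity (y axis, starting at 0) of the measured genes of 8 marker lists on each sham (blue) and 120 h (red) cortex array, with marker shape for the replicate number. Macrophage sums range over 4032 to 5517 in sham and 7831 to 15977 at 120 h, while endothelial sums overlap (8006 to 9963 against 8162 to 9106).

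Of 22 measured complement genes 7 rose (31.8%, against 3.07% of all genes) and 1 fell (median 0.79; rises numbered 4 without sham 1 or 120 h 2). C2, the protease of the classical convertase, read 6.55, 6.59 and 5.91 in sham and 8.57, 9.68 and 9.08 at 120 h (2.76 ± 0.38, adjusted p = 0.00039). Cfi, the protease that inactivates C3b and C4b, read 5.73, 6.57 and 6.69 in sham and 8.62, 9.43 and 8.80 at 120 h (2.62 ± 0.35, adjusted p = 0.000252). C4b, which joins C2 in the convertase, read 9.24, 9.51 and 9.44 in sham and 11.27, 12.27 and 11.64 at 120 h (2.33 ± 0.36, adjusted p = 0.0008). None of the 3 overlapped between the groups, and all 3 were highest on 120 h 2. The complement rises also included the C1q chain genes C1qa, C1qb and C1qc. C1qb differed by 1.68, a call lost without sham 1 (adjusted p = 0.235), 120 h 1 (0.0957) or 120 h 2 (0.187). C1qa and C1qc are counted above among the macrophage markers too, so the complement and macrophage lists share members and are not separate counts. Cfp, the alternative pathway stabiliser properdin, differed by 1.04 ± 0.26 (adjusted p = 0.0217), lost without sham 1 (adjusted p = 0.117), sham 2 (0.0657) or 120 h 2 (0.151). The fall was C6, a part of the membrane attack complex (-1.05 ± 0.29, adjusted p = 0.0405), which was not called without any 1 of the 6 arrays (adjusted p between 0.0506 and 0.129).

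Chemokines and cytokine signalling genes were called in small numbers. Of 30 chemokines and receptors outside the interferon list 3 rose (median 0.36; 1 without sham 1 or 120 h 2), of 27 genes of TNF and interleukin-1 signalling 5 rose (median 0.37; 3 without sham 1 or 120 h 2), and of 35 interferon-induced genes 3 rose and 1 fell (median 0.25; rises numbered 0 without 120 h 2 and 1 without sham 1). Birc3, an inhibitor of cell death induced by NF-kB, read 4.95, 5.15 and 5.12 in sham and 7.29, 7.96 and 6.86 at 120 h, wide apart (2.30 ± 0.26, adjusted p = 5.88e-05). The pattern receptor Tlr2 rose by 1.48 ± 0.29 (adjusted p = 0.00455) and the NF-kB subunit Nfkb2 by 1.07 ± 0.19 (adjusted p = 0.00234). The calls of Birc3, Tlr2 and Nfkb2 held without any 1 of the arrays, though Tlr2 did not pass in a fit of only the 2 groups (adjusted p = 0.0735). The monocyte attractant Ccl2 read 5.50, 6.27 and 6.04 in sham and 8.03, 9.75 and 7.68 at 120 h (2.55 ± 0.54, adjusted p = 0.00805), lost without sham 1 (adjusted p = 0.0503) or 120 h 2 (0.0646). Ccl20, the ligand of Ccr6, read 5.18, 5.36 and 6.57 in sham and 8.90, 7.88 and 8.91 at 120 h (2.86 ± 0.72, adjusted p = 0.0246), lost without sham 1 (adjusted p = 0.113), sham 2 (0.0746), 120 h 1 (0.076) or 120 h 3 (0.0709). For Cxcl10, an interferon-induced attractant of T cells, the arrays read 5.27, 6.34 and 5.80 in sham and 9.20, 8.32 and 8.75 at 120 h (2.96 ± 0.74, adjusted p = 0.0244), a call lost without sham 1 (adjusted p = 0.112), sham 3 (0.0589), 120 h 1 (0.0786), 120 h 2 (0.0592) or 120 h 3 (0.0549). Ccl2, Ccl20 and Cxcl10 lay higher on each injured array than on any sham array. The chemokine Ccl6 rose by 1.47 ± 0.36 (adjusted p = 0.0206), lost without sham 3 (adjusted p = 0.0827) or 120 h 2 (0.147), and the interferon-induced chemokine Cxcl11 by 1.87 ± 0.39 (adjusted p = 0.00703), lost without 120 h 2 (adjusted p = 0.0563).

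The Cxcl10 promoter is shown because it is known to join interferon and NF-kB control (RefSeq, GRCr8, chr14:15988816-15989115, plus strand). Capitals mark the core of the interferon-stimulated response element (GAAA, 2 bases of any kind, GAAA) and an NF-kB-like motif (GGG, 3 bases of any kind, T, 1 base of any kind, CC) on both strands, and 2 of the NF-kB-like matches overlap.
Cxcl10: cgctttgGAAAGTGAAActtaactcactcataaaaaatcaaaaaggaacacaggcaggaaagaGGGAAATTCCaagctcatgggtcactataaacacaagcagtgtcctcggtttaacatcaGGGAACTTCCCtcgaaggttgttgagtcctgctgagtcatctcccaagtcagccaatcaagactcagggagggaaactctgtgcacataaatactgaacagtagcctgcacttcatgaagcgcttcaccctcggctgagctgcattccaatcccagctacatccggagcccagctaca
The 8 interferon and class I genes called higher (falls were left out) all had a promoter in the table. Of these, 4 of 8 (50%) held the interferon element, against 2.87% of promoters of genes with a kept probe. Of the 8 called genes of chemokines, TNF and interleukin-1 signalling 6 had one, and 4 of 6 (66.7%) held the NF-kB-like motif, against 20.5%. In every promoter set of this report the motif was chosen for the known control of such genes, with their rises seen. Uncalled members of the same lists were not counted apart, so these shares do not tell called from uncalled members.

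Matrix genes had 37 positive differences among 49, with 120 h 2 apart from the other injured arrays. Of the list 9 rose and 1 fell (median 0.55), but the rises numbered 1 without 120 h 2, 2 without sham 1, 3 without sham 3 and 5 without sham 2. Mfap4, a microfibril-associated glycoprotein, read 5.28, 5.32 and 5.55 in sham and 7.05, 6.73 and 6.93 at 120 h, with tight groups that did not overlap (1.52 ± 0.28, adjusted p = 0.00285). Col1a1, the alpha-1 chain of collagen I, read 4.79, 5.54 and 4.66 in sham and 6.53, 8.63 and 6.70 at 120 h (2.29 ± 0.60, adjusted p = 0.0288), lost without sham 1 (adjusted p = 0.111), sham 3 (0.0851) or 120 h 2 (0.185). Its values on sham 1 and sham 3 were under the lowest signal above background of those arrays (4.855 and 4.89). Fn1, the adhesive matrix protein fibronectin, read 8.64, 8.46 and 8.48 in sham and 9.11, 11.28 and 10.34 at 120 h (1.72 ± 0.44, adjusted p = 0.0252), lost without sham 1 (adjusted p = 0.072), sham 2 (0.0647), sham 3 (0.0641), 120 h 2 (0.171) or 120 h 3 (0.0639). Both genes had their injured maximum on 120 h 2 by a wide margin. Col3a1 differed by 1.75 ± 0.52 (adjusted p = 0.056) and the collagen crosslinker Lox by 1.41 ± 0.42 (adjusted p = 0.0544), neither past the threshold. The 9 fibroblast and smooth muscle markers, 2 of which rose (0 without sham 1, sham 3 or 120 h 2 and 1 without sham 2), summed to 4413 to 5654 in sham and 5642 to 12386 at 120 h, where the upper end was 120 h 2 and the other injured arrays stood at 5862 and 5642. Their part in the matrix result was not tested.

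In the TGF-beta family 3 of 29 ligands, receptors and modulators rose and 1 fell (median 0.15), with rises numbering 1 without sham 1, sham 3 or 120 h 2. Ltbp2, a microfibril protein related to the carriers of latent TGF-beta, read 5.18, 5.24 and 5.05 in sham and 6.70, 7.60 and 7.81 at 120 h, far apart (2.21 ± 0.28, adjusted p = 0.000154), and held its call without any 1 of the arrays. Tgfb1, the main profibrotic ligand, read 7.17, 7.55 and 7.33 in sham and 7.99, 8.59 and 7.99 at 120 h (0.84 ± 0.23, adjusted p = 0.0345), lost without sham 1 (adjusted p = 0.149), sham 3 (0.0792) or 120 h 2 (0.201). The fall was the coreceptor Tgfbr3 (-1.09 ± 0.31, adjusted p = 0.0435), not called without sham 1 (adjusted p = 0.165), sham 3 (0.105), 120 h 1 (0.155) or 120 h 2 (0.14). Timp3, an inhibitor of metalloproteinases bound to the matrix, was the matrix gene that fell, from 10.29, 9.75 and 10.28 in sham to 8.32, 7.98 and 8.21 at 120 h (-1.93 ± 0.41, adjusted p = 0.00845), with its highest injured array well below the lowest sham array. Annexins and S100 proteins, which bind calcium and membranes, gave 6 rises among 20 (median 0.62), but 1 without sham 1 or 120 h 2, 2 without 120 h 3 and 3 without sham 2 or sham 3. Anxa5 read 7.96, 7.46 and 6.99 in sham and 8.53, 9.28 and 9.33 at 120 h and held its call without any 1 array.

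**Figure D4:**
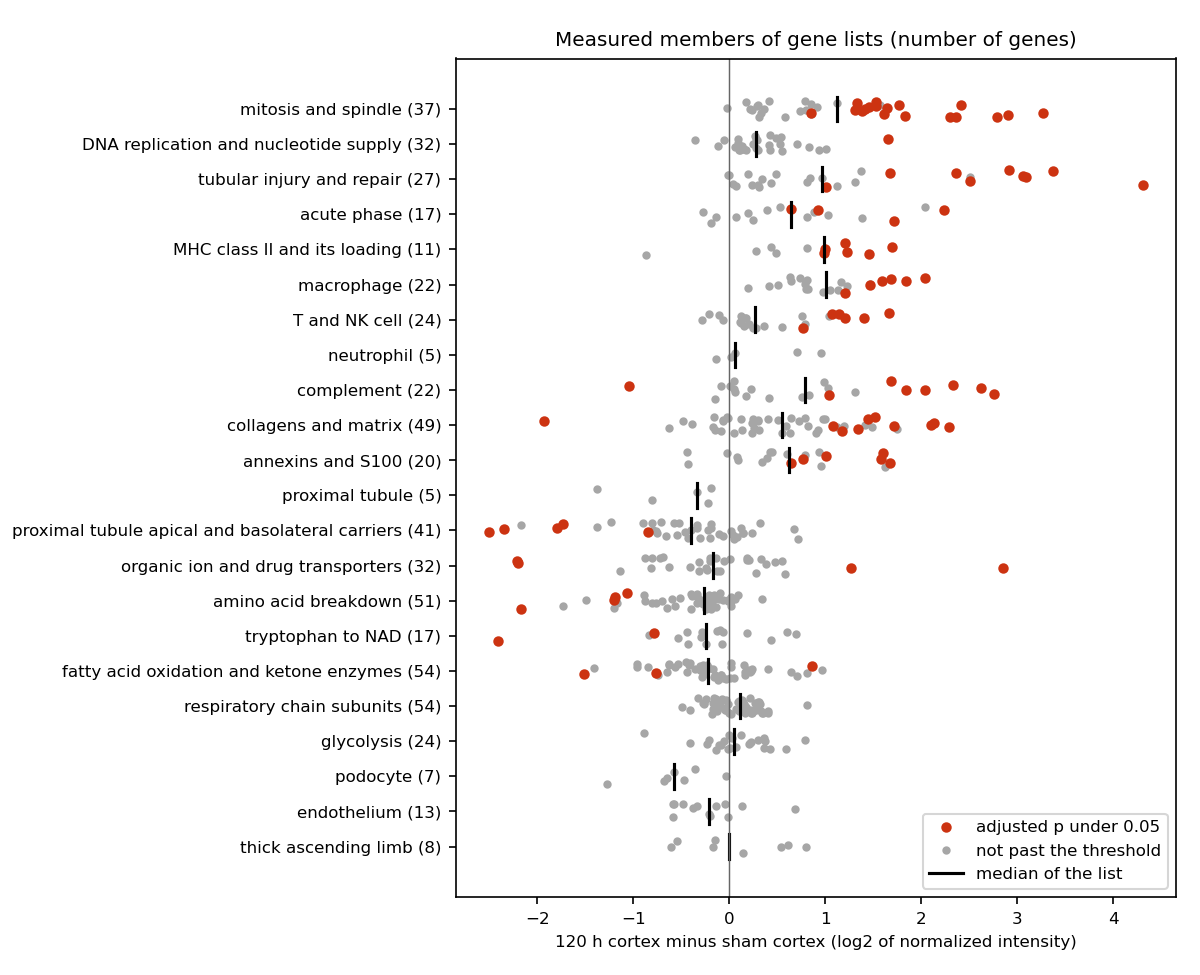
Difference between 120 h and sham cortex (x axis, log2) of each measured gene in 22 lists, with genes past an adjusted p of 0.05 in red, the others in grey and a bar at the list median. Mitosis genes extend to the right (median 1.13), carriers of the proximal tubule to the left (median -0.40), and respiratory chain genes stay in a narrow band (-0.49 to 0.81).

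Carriers of the proximal tubule had more falls than any other function list. Of 41 measured carriers 5 fell and 0 rose, against 3.03% of all genes lower, and 30 had a negative difference (median -0.40). The count of falls stayed at 4 to 5 with 1 array left out. Slc16a12, a transporter of creatine, read 8.67, 8.41 and 8.48 in sham and 6.38, 5.93 and 5.73 at 120 h (-2.50 ± 0.31, adjusted p = 0.00014), a 5.67-fold fall. Kcnj15, a potassium channel of the basolateral membrane, read 7.74, 6.99 and 7.66 in sham and 5.02, 4.95 and 5.41 at 120 h (-2.34 ± 0.34, adjusted p = 0.000512). The groups of both genes were separated by more than 1 log2 unit.

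Slc43a2, a carrier of large neutral amino acids, read 9.10, 9.35 and 8.50 in sham and 7.34, 7.24 and 7.01 at 120 h (-1.79 ± 0.35, adjusted p = 0.00484). Slc15a1, a carrier of small peptides, read 6.99, 6.43 and 6.83 in sham and 5.24, 4.74 and 5.07 at 120 h, where it was above background on 2 of 3 arrays (-1.73 ± 0.21, adjusted p = 9.67e-05). Both held without any 1 array, whereas the sodium-proton exchanger Slc9a8 (-0.85 ± 0.20, adjusted p = 0.0145) was lost without sham 1 (adjusted p = 0.103) or 120 h 1 (0.0675). Other carriers of the segment did not pass: the glucose carrier Slc5a2 differed by -1.38 ± 0.68 (adjusted p = 0.263), the lactate carrier Slc5a12 by -2.17 ± 0.70 (0.0759), the phosphate carrier Slc34a1 by -0.33 ± 0.68 (0.859) and the water channel Aqp1 by -0.19 ± 0.27 (0.77). For Slc34a1 the arrays read 13.79, 13.61 and 13.43 in sham and 13.52, 12.98 and 13.33 at 120 h, so that the groups overlapped. The summed proximal tubule markers given above were lowest on 120 h 2, the array with the highest macrophage sum, and the part of cell composition in the falls was not tested.

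Among 32 organic ion and drug transporters 2 rose and 2 fell. The rises were 1 without sham 2, sham 3 or 120 h 2, and the falls 1 without sham 1, sham 2, 120 h 1 or 120 h 2. The summed intensity of the list was 56292 to 73059 in sham and 38387 to 49136 at 120 h. Abcb1b, a P-glycoprotein efflux pump, read 5.69, 5.08 and 4.95 in sham and 8.21, 8.25 and 7.82 at 120 h (2.85 ± 0.42, adjusted p = 0.000542), with all injured arrays more than 2 log2 units above the highest sham array. Slc22a23, an orphan member of the organic ion transporter family, fell from 7.90, 7.85 and 7.68 in sham to 5.65, 4.98 and 6.21 at 120 h (-2.20 ± 0.32, adjusted p = 0.000512). Slco4c1, an organic anion carrier, differed by -2.20 ± 0.62 (adjusted p = 0.0413), but its sham arrays read 9.32, 7.59 and 5.58, the groups overlapped and the call was lost without sham 1 (adjusted p = 0.245), sham 2 (0.096), 120 h 1 (0.135) or 120 h 2 (0.144).

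Enzymes that break down amino acids mostly had negative differences, few of which passed. Of 51 measured enzymes 45 had a negative difference (median -0.27) and 4 fell, but 0 without 120 h 2, 1 without sham 1 and 2 without 120 h 1 or 120 h 3. Their summed intensity was 172350 to 192130 in sham and 122070 to 151850 at 120 h. The largest was Maob, the monoamine oxidase of mitochondria, at 8.67, 9.09 and 8.76 in sham and 7.38, 6.48 and 6.14 at 120 h (-2.17 ± 0.49, adjusted p = 0.0115), lost without 120 h 2 (adjusted p = 0.0592) or 120 h 3 (0.05003). Asl, the urea cycle and arginine-forming lyase, read 11.22, 11.01 and 11.28 in sham and 10.14, 9.94 and 9.88 at 120 h (-1.19 ± 0.27, adjusted p = 0.0133), lost without sham 1 (adjusted p = 0.0589) or 120 h 2 (0.0592). Hykk, a kinase of hydroxylysine breakdown, differed by -1.95 ± 0.52 (adjusted p = 0.0313), lost without sham 1 (adjusted p = 0.143), sham 2 (0.0559), sham 3 (0.0569), 120 h 1 (0.1) or 120 h 2 (0.131). All 3 had every injured array below every sham array.

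Acmsd, which turns tryptophan breakdown away from NAD synthesis, was the largest of 2 falls among 17 genes from tryptophan to NAD. It read 10.08, 9.67 and 9.94 in sham and 7.54, 6.79 and 8.14 at 120 h (-2.40 ± 0.55, adjusted p = 0.0129), a separation of over 1 log2 unit, and the call was lost without sham 1 (adjusted p = 0.0615) or 120 h 2 (0.0877). The falls of that list numbered 0 without sham 1 or 120 h 2 and 1 without sham 2, sham 3 or 120 h 1. Nmnat1, which makes NAD in the nucleus, differed by -0.78 ± 0.22 (adjusted p = 0.0437), lost without sham 1 (adjusted p = 0.063), sham 2 (0.134), sham 3 (0.0966), 120 h 1 (0.0893) or 120 h 2 (0.218). In fatty acid oxidation 2 of 54 genes fell (3.7%) and 1 rose (1.85%), close to or under the shares over all genes (median -0.22), with falls numbering 1 without sham 1, sham 2, sham 3, 120 h 2 or 120 h 3. Of the 54 genes 37 had a negative difference. Wholly below sham lay 12 and wholly above 3, against 14.1% and 14.9% of all genes. Their summed intensity was lower on every injured array (192130 to 229100 in sham and 170080 to 186740 at 120 h). Acadsb, a dehydrogenase of short branched acyl chains, fell from 7.01, 6.45 and 6.24 in sham to 4.87, 5.07 and 5.21 at 120 h (-1.52 ± 0.23, adjusted p = 0.000657) and held without any 1 array. The peroxisomal thiolase Acaa1a (-0.76 ± 0.21, adjusted p = 0.0368) was lost without sham 1 (adjusted p = 0.0802), sham 2 (0.0871), sham 3 (0.0959), 120 h 2 (0.167) or 120 h 3 (0.119), and the ketone enzyme Bdh1, which rose (0.87 ± 0.25, adjusted p = 0.048), without sham 2 (adjusted p = 0.102), sham 3 (0.177), 120 h 1 (0.0658), 120 h 2 (0.153) or 120 h 3 (0.126).

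Energy metabolism outside these steps showed no call. None of 54 respiratory chain subunits, 24 glycolytic genes and 15 genes of gluconeogenesis and glycogen passed, and respiratory subunit differences ran from -0.49 to 0.81. The gluconeogenesis and glycogen list had 12 of 15 negative differences (median -0.19), its summed intensity was 99132 to 106630 in sham and 63295 to 95548 at 120 h, and 1 member was called lower without 120 h 1. The respiratory chain median of 0.11 turned to -0.13 without sham 1. At an unadjusted p under 0.05, 1 respiratory, 2 glycolytic and 3 gluconeogenic genes passed, against 2919 of all 14390 probes. The receptors and adaptors of protein uptake gave 0 calls among 17 (median -0.05), including Cubn, the cubilin receptor, at -0.22 ± 0.44 (adjusted p = 0.855).

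Several of the strongest falls belonged to none of these functions. Mapk4, an atypical MAP kinase, was the largest annotated fall, from 7.93, 8.26 and 8.44 in sham to 5.70, 5.13 and 6.23 at 120 h (-2.52 ± 0.41, adjusted p = 0.00113), or 5.75-fold. Ggta1, which makes the alpha-galactose sugar epitope, fell from 8.35, 8.19 and 8.19 to 6.01, 5.95 and 6.16 (-2.20 ± 0.23, adjusted p = 2.54e-05). Its arrays were tight within each group and far apart between groups. Tfrc, the transferrin receptor through which cells take up iron, fell from 7.90, 7.17 and 7.04 to 5.16, 5.49 and 5.75 (-1.90 ± 0.28, adjusted p = 0.000512). Among 25 iron genes it was the only fall and Lcn2 the only rise, with 2 rises without sham 1 and 2 falls without 120 h 3.

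The lysoplasmalogen hydrolase Tmem86a (-2.38 ± 0.50, adjusted p = 0.00819), the kinase Nek7 of the NIMA family (-2.07 ± 0.29, adjusted p = 0.000407), Sh3bgrl2 (-2.05 ± 0.27, adjusted p = 0.000252), Nrep (-1.96 ± 0.37, adjusted p = 0.00364) and the actin-binding protein gene Aif1l (-1.96 ± 0.27, adjusted p = 0.000332) fell as well. These 5 calls held without any 1 of the arrays, but Nrep did not pass in a fit of only the 2 groups (adjusted p = 0.0567). Aif1l read 8.69, 8.42 and 8.20 in sham and 6.44, 6.46 and 6.52 at 120 h, where the injured arrays were nearly equal. Aif1l is a separate gene from the macrophage marker Aif1, which differed by 1.17 ± 0.39 in the other direction without passing (adjusted p = 0.0854).

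Enzymes of detoxification and redox defence had a few rises in lists whose medians lay near 0. Ugt2b7, a glucuronosyltransferase, read 4.65, 5.75 and 5.78 in sham and 8.52, 8.91 and 8.30 at 120 h (3.18 ± 0.64, adjusted p = 0.00588; 0.0638 in a fit of the 12 cortex arrays). Its sham 1 value was under the lowest signal above background of that array (4.855). Ugt2b7 was the only call among 40 conjugating enzymes, whose median was -0.02, and a probe may read more than 1 of these close copies. The summed intensity of that list was lower on every injured array (93229 to 102470 in sham and 72917 to 89645 at 120 h). Of its 40 members 10 lay wholly below sham and 4 wholly above, against 14.1% and 14.9% of all genes. Akr1b8, an aldo-keto reductase, read 5.54, 5.39 and 6.69 in sham and 9.17, 8.16 and 8.86 at 120 h (2.85 ± 0.48, adjusted p = 0.00161). Gpx2, a glutathione peroxidase of epithelia, read 6.68, 7.90 and 7.14 in sham and 10.001, 9.72 and 9.49 at 120 h (2.50 ± 0.49, adjusted p = 0.00455). Akr1b8 and Gpx2 were among 3 rises in 31 Nrf2-linked genes, a list with a median of 0.07. Of 33 cytochrome P450 genes 2 rose (0 without sham 1, sham 2, sham 3, 120 h 2 or 120 h 3) and 1 fell, among them Cyp24a1, the vitamin D hydroxylase, at 2.04 ± 0.54 (adjusted p = 0.0308), lost without sham 1 (adjusted p = 0.061), sham 2 (0.0901), sham 3 (0.0804), 120 h 2 (0.148) or 120 h 3 (0.0669). Probes of Cyp4a1, a fatty acid hydroxylase, did not behave alike: 1 probe differed by -2.33 ± 0.62 (adjusted p = 0.0317) and the other by -0.74 ± 0.30 (adjusted p = 0.165).

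Other functions had few calls, though the share of rises in some was above the 3.07% over all genes. It was 12% for immediate early genes, 9.52% for cholesterol synthesis and 9.09% for the Bcl2 family. Wholly above sham lay 11 of 25 immediate early genes and 20 of 58 ribosomal protein genes, against 14.9% of all genes. Of 25 immediate early genes 3 rose (median 0.71), Junb, Klf5 and Klf6, but 0 without sham 1, sham 2, 120 h 1, 120 h 2 or 120 h 3, while Atf3 differed by 2.14 ± 0.63 (adjusted p = 0.0515). Cytosolic ribosomal proteins gave 1 call among 58 although 49 had a positive difference (median 0.38, 0.14 without sham 1), and proteasome subunits 2 among 33 (median 0.25). There was 1 rise among 22 heat shock genes, 1 among 28 genes of endoplasmic reticulum stress, 2 among 21 of cholesterol synthesis, 2 among 22 of the Bcl2 family and cell death and 2 among 32 of keratins and cytoskeleton. These rises numbered 0 without sham 3 or 120 h 2 for heat shock genes, 0 without 120 h 2 and 1 without sham 2, sham 3 or 120 h 3 for cholesterol synthesis, 0 without sham 1 or 120 h 2 and 1 without sham 3 or 120 h 1 for the Bcl2 family, 0 without sham 1 or 120 h 2 and 1 without sham 2, sham 3 or 120 h 3 for keratins, 0 without sham 1 or 120 h 2, 3 without sham 2 and 4 without sham 3 for ribosomal proteins, and 0 without sham 1, 120 h 2 or 120 h 3 and 1 without sham 2, sham 3 or 120 h 1 for the proteasome. In the EGF receptor family 1 of 12 genes fell, the ligand Btc (-0.99 ± 0.26, adjusted p = 0.0273), lost without sham 1 (adjusted p = 0.141), sham 3 (0.0886), 120 h 1 (0.0754) or 120 h 2 (0.137). None of 13 clock genes passed.

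Markers of the other nephron segments and of vessels gave almost no call. There were 0 calls among 8 thick ascending limb markers, where the uromodulin gene Umod differed by 0.14 ± 0.52 (adjusted p = 0.93), 0 among 9 of the distal convoluted and connecting tubule, 0 among 10 of principal cells, where the water channel Aqp2 differed by 0.60 ± 0.71 (adjusted p = 0.714), and 0 among 13 of endothelium (median -0.21). All 7 podocyte markers had a negative difference without a call (median -0.58), with summed intensities of 8065 to 9896 in sham and 4972 to 7374 at 120 h. Of 10 intercalated cell markers the anion exchanger Slc4a1 fell, from 8.72, 8.03 and 8.55 in sham to 6.996, 6.98 and 7.03 at 120 h (-1.43 ± 0.34, adjusted p = 0.0157), lost without sham 1 (adjusted p = 0.088), sham 3 (0.0528) or 120 h 2 (0.0646). Red cells share that exchanger, and the 9 erythroid markers summed to 13862 to 27210 in sham and 12307 to 23211 at 120 h. Adrenal, urothelial and fat cell markers gave 0 calls among 5, 4 and 7 measured genes.

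Probes without a gene symbol in the annotation took 148 of the 461 falls (32.1%) and 48 of the 352 rises (13.64%), against 30.15% of all probes tested. The largest rise of all was one of them, ILMN_1353209, at 6.34, 6.11 and 7.22 in sham and 11.77, 13.40 and 13.21 at 120 h (6.24 ± 0.66, adjusted p = 3.07e-05), or 75.5-fold. The largest fall was ILMN_1359193, at 10.09, 8.75 and 8.57 in sham and 4.88, 5.78 and 6.57 at 120 h (-3.39 ± 0.48, adjusted p = 0.000403). Neither overlapped between the groups, and both are left unnamed here. They were singled out after their values were seen. Of 242 genes with several kept probes 30 had a call, 2 of them on every probe, 0 had calls in both directions, and 2 had a probe of the opposite sign.

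The 24 h arrays were used to ask which differences were still moving. Between 24 and 120 h in cortex 337 probes changed (2.34%), 128 higher (0.89%) and 209 lower (1.45%). As genes with 1 probe each these were 250 (2.55%), 92 higher (0.939%) and 158 lower (1.61%), in a comparison that shares the 120 h arrays with the one above. The count lay between 135 (without 24 h 2) and 232 (without 24 h 3) when 1 array was left out. Cdk1 had a mean of 6.17 ± 0.73 (SD, n = 3) at 6 h and 10.30 ± 0.26 at 24 h, and at 120 h its difference from 24 h was -2.01 ± 0.37 (adjusted p = 0.00579) while still above sham. Kif20a (-2.12 ± 0.39, adjusted p = 0.00548) and Ube2c (-1.70 ± 0.33, adjusted p = 0.00778) fell likewise, and these 3 calls held without any 1 array. Fgb was at 7.66 ± 1.05 at 6 h, 10.86 ± 1.18 at 24 h and 8.32 ± 0.83 at 120 h. Its difference of -2.54 ± 0.60 from 24 h passed (adjusted p = 0.0297), but not without 120 h 1 (adjusted p = 0.127), 120 h 3 (0.102), 24 h 2 (0.0804) or 24 h 3 (0.139).

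RT1-Db1 had means of 10.09 ± 0.78 at 6 h and 9.49 ± 0.11 at 24 h against 9.52 ± 0.33 in sham, and was higher at 120 h than at 24 h by 1.72 ± 0.36 (adjusted p = 0.0122; 0.0571 without 120 h 1). Ltbp2 also rose after 24 h, by 1.44 ± 0.28 (adjusted p = 0.00804; 0.0638 without 120 h 3). Lcn2 (-0.02 ± 0.54, adjusted p = 0.989) and Spp1 (-0.20 ± 0.22, adjusted p = 0.759) did not pass between those times, and Spp1 was near the top of the scale at both, where a change is compressed. Of the falls, Slc16a12 differed by 0.92 ± 0.31 from its 24 h mean of 5.09 ± 0.55 (adjusted p = 0.136) and Acmsd by 0.59 ± 0.55 from its 24 h mean of 6.91 ± 0.38 (adjusted p = 0.695), neither past the threshold. Slc43a2 differed by 1.26 ± 0.35 between those times (adjusted p = 0.0643).

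**Figure D5:**
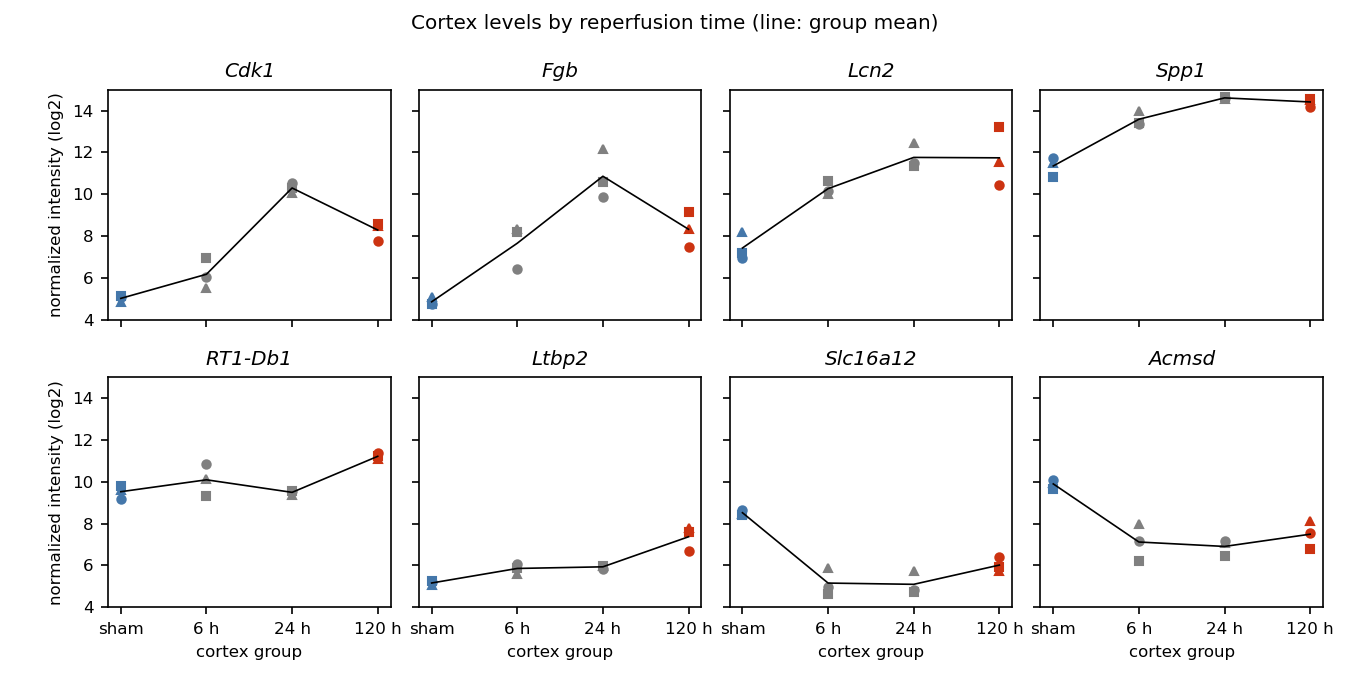
Normalized intensity (y axis, log2) of 8 genes on each cortex array of sham (blue), 6 and 24 h (grey) and 120 h (red) groups, with a line through the group means and equal spacing between groups. Cdk1 and Fgb stand highest at 24 h, RT1-Db1 and Ltbp2 at 120 h, Lcn2 stays near its 24 h level, Spp1 is near the top of the scale at both times, and Slc16a12 and Acmsd are below sham at all 3 times.

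Responses of the medulla at 120 h, against its own sham arrays, were set beside those of the cortex through the interaction of region and injury. It passed for 2 of 14390 probes (0.0139%), 1 in each direction (0.00695% each), of which 1 was annotated (0.0102% of genes, with the smaller response in medulla), and 813 probes had an unadjusted p under 0.05. That gene was Spp1, with a response of 3.06 in cortex and 1.16 in medulla, a difference of -1.90 ± 0.31 (adjusted p = 0.0413). Its sham level was already 13.36 ± 0.37 in medulla against 11.35 ± 0.49 in cortex, and both injured means (14.52 ± 0.11 and 14.41 ± 0.19) sat near the top of the scale, where a response is compressed. The call was lost without 10 of the 12 arrays of these groups in turn, with adjusted p-values between 0.0531 and 0.187, sham cortex 1 and sham medulla 1 being the exceptions. Sham medulla 1 correlated more with the mean of the sham cortex arrays (0.986) than with the other sham medulla arrays (0.971), against its label, and without it the difference of Spp1 was -2.10 (adjusted p = 0.0118) and 5 probes passed. The other probe, unannotated ILMN_1355912, was above background on all 3 sham cortex arrays and none at 120 h, at least 3.74-fold lower, and differed in response by 1.74 ± 0.20 (adjusted p = 0.000568). Its medulla means were 5.11 ± 0.31 in sham and 4.77 ± 0.08 at 120 h, near the cortex level that was not above background (4.68 ± 0.09), which leaves little room for a fall in medulla. For the other main genes the regional responses did not differ past the threshold: Lcn2 differed from sham by 4.31 and 4.37 in cortex and medulla, Fgb by 3.47 and 3.68, Cdk1 by 3.27 and 2.84 and Cd74 by 1.46 and 1.60, and Slc16a12 by -2.50 and -2.21. The SE of these differences in response was 0.34 for Cd74, 0.44 for Slc16a12, 0.53 for Cdk1, 0.76 for Lcn2 and 0.85 for Fgb, so that 3 arrays per group leave wide margins.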

How the data were processed

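RNA had been labelled and hybridised to Illumina bead arrays, per the labels' protocols. The deposited table held a raw probe intensity per array, per the file headers, and beside it a detection value between 0 and 1. That fraction rose with the intensity in the deposited table, so 1 minus it was used as the detection p. The authors' separate series values were log2 numbers with almost equal distributions on all arrays, and no source used here states their method. Intensities were background-corrected (normexp by control probes inferred from detection values, offset 16), quantile-normalized and log2-transformed with limma 3.58.1 (neqc) in R 4.3.3. A probe was kept if its detection p fell below 0.05 in any 3 or more of the 24 arrays, whatever their groups. This left 14390 of 22523 probes. Group means of 8 groups over 24 arrays were fitted with lmFit and eBayes, with Benjamini-Hochberg adjustment over kept probes and a threshold of 0.05. An exact permutation test of 3 against 3 arrays cannot go below p = 0.1. The fit was tested on simulated data for 120 h against sham cortex (14390 probes). It called 58 of 100 probes changed by 1 log2 unit and 96 of 100 changed by 2, with 7 false calls. The simulated noise was normal, independent between probes and equal across groups, and no other probe was changed. Deviations shared by many probes of an array were not simulated, so these counts need not hold for the real arrays.

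Symbols came from the platform annotation, where 13793 probes had 1 symbol and 8730 none or several, updated through RefSeq, which left 41 gene identifiers unmatched. A gene was read from its probe with the highest mean. Named genes were the 15 largest rises and falls past the threshold without overlap of the arrays, a set of injury and segment genes, and up to 8 called members per list. The members and lists were chosen with earlier results of these data known. A few uncalled members (such as F3, Vwf, Mcm6, Plk1, Aif1 and Tyrobp) were added as examples after their values were seen. A bound fold sets the brighter group against the lowest signal above background. Alternatives covered background, normalization, filter, arrays in the fit, array weights, variance prior, threshold and each array left out.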

Additional observations from a re-analysis of the deposited data

Results flagged for a closer look

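Spp1 was singled out because its response to injury differed between regions by a test of the difference itself. The medulla response minus the cortex response at 120 h was -1.9 on the log2 scale (limma adjusted p = 0.0413), with 3 arrays in each of 4 groups. All injured values of Spp1 lay near the top of the normalized scale. The call did not hold with no filter on dim probes (adjusted p = 0.0743), with 1 probe per gene (0.0573), in a fit of only the groups compared (0.465) or with a replicate block (0.0535).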

How the results depend on the processing

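Of 813 probes called between 120 h and sham cortex (352 higher, 461 lower), 463 (188 and 275) were called in a fit of only the groups compared, 513 (276 lower) in a fit of the 12 cortex arrays, 1888 (854 and 1034) with array weights, 286 (117 and 169) at an adjusted p under 0.01 and 504 (232 and 272) with at least a 2-fold change. The split was 317 higher and 310 lower with 1 probe per gene. Leaving out 1 array gave 297 to 676 calls, 110 to 297 higher and 184 to 388 lower. For 120 h against 24 h (337, 128 higher and 209 lower) the counts were 206 (49 higher) with the 12 cortex arrays, 1997 (1087 and 910) with array weights, 119 (22 and 97) at 0.01, 220 (77 higher) with 2-fold, and 211 higher with only the groups compared, and leaving out 1 array gave 135 to 232, 26 to 90 higher and 88 to 158 lower. For the difference between regions (2, 1 higher and 1 lower) they were 1 (0 higher) with median scaling, 1 (0 lower) with no filter or at 0.01, 0 with 1 probe per gene or only the groups compared, 16 (10 and 6) with array weights, 4 (3 higher) with trend and robust, 2 higher with an offset of 50, and 1 to 5, 1 to 3 higher and 0 to 3 lower without 1 array. Fits of fewer arrays have fewer degrees of freedom; the cause of the other shifts was not tested. Of 133 named genes called between 120 h and sham, 48 were called without each array in turn, 42 of them also under the background, normalization, filter, array-set, weight and variance alternatives. A fit of only the groups compared kept 74 of the 133 calls, lost 59 and added 2. No named gene that was called changed sign, but the medians of 11 lists did under some setting, all of them lists with few or no calls.

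Deviations from the group means of same-numbered sham and 120 h cortex arrays correlated at -0.28, 0.12 and -0.15, against -0.22 to 0.33 between different numbers. Whether same-numbered cortex and medulla arrays of a condition came from the same animal is not given by the labels. That pairing was not tested, and the fit treats those arrays as independent. With a replicate block 827 probes were called between 120 h and sham, 371 between 120 h and 24 h, and 1 (0 lower) for the difference between regions. Of the 133 named calls the block kept 124 and lost 9 (among them Ctss, C1qb, Bdh1 and Nmnat1), and it added 1, Vim. Probes near background or near the top of the scale understate differences, and 3 arrays per group limit the precision.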
